A study of Mus musculus with 6 samples.

Results

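Photoreceptor fate transcription factors are the DNA-binding proteins that direct dividing retinal progenitors into rods and cones and then keep these cells differentiated. The 10 genes followed here, Rax, Otx2, Neurod1, Rorb, Prdm1, Crx, Nrl, Nr2e3, Mef2d and Rxrg, were taken by symbol from a table of 55487 genes, in which each of them had 1 row. The lowest value of any factor in any library was 1030 reads, and all 10 were among the 20459 genes tested, which had at least 10 reads in at least 3 libraries. The question was whether the RNAs of these factors differed between cells sorted as endothelial from control and endothelial Bmal1 knockout retinas. It was also asked how they stood relative to rod and cone genes in the same libraries. The factors act in photoreceptors, their precursors or progenitors, and bulk reads do not tell which cells an RNA came from.

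The RNA came from cells sorted as retinal vascular endothelial cells (VECs) from mice at P7.5, positive for both GFP and tdTomato. The control group held 3 libraries of tdTomato FL/+;Pdgf-icreER animals, and the Bmal1;CKO group held 3 libraries of Bmal1 FL/FL;tdTomato FL/+;Pdgf-icreER animals. Both groups carried the Cre transgene, which also encodes the GFP, and the Cre-dependent tdTomato reporter, and tamoxifen was given to both groups between P0.5 and P2.5, so the floxed Bmal1 alleles were the only stated difference. Pdgf-icreER acts where the Pdgfb promoter is active, which includes endothelial cells but is not a photoreceptor promoter, and the gate held whatever cells carried both colors. Libraries are numbered 1 to 3 (control) and 4 to 6 (Bmal1;CKO) as in the table. These numbers were not those of the sample descriptions. The paper reports its control sample tdTom1 as an outlier in principal component analysis, with no technical issue found. Which of the columns holds that sample is not stated. The methods give 3 animals a group but no litters or sorting days, so p-values measure the spread between these libraries.

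Reads on genes ranged from 71145068 to 104017800 per library. Values are normalized counts, which are reads divided by the size factor of the library. Bmal1, listed as Arntl, had 1700, 3489 and 2928 normalized counts in control and 1779, 2747 and 2415 in Bmal1;CKO libraries. These ranges overlapped, and a count over the whole gene does not isolate the floxed part, so it does not check the genotype labels. By droplet digital PCR, the paper reports significantly less Bmal1 transcript in sorted endothelial cells of the mutant genotype than of the control genotype. No library had fewer than 10 reads of any of 15 endothelial markers, with summed levels of 210677 to 424370 normalized counts in control and 137506 to 288944 in Bmal1;CKO. The same held for 26 rod genes, with summed levels of 1103790 to 1471540 in control and 806961 to 1369240 in Bmal1;CKO. The 13 microglia and macrophage markers, 12 of which had at least 10 reads in every library, summed to 1745180 to 4942250 in control and 2436890 to 4745690 in Bmal1;CKO, above both of these lists. Cldn5, the claudin of the endothelial tight junction, had 60099 to 201094 normalized counts over the 6 libraries. In these bulk libraries a smaller number of cells of a type and less RNA per cell cannot be told apart.

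As background, RAX is a homeodomain protein of the eye field and retinal progenitors, and OTX2 commits postmitotic precursors to the photoreceptor lineage. CRX, a homeodomain relative of OTX2, activates rod and cone genes. RORB acts upstream of NRL, the basic leucine zipper protein that selects the rod fate, and NRL activates Nr2e3, whose product represses cone genes in rods. PRDM1 holds back the bipolar fate in early photoreceptors, NEUROD1 is a basic helix-loop-helix factor of photoreceptor differentiation, MEF2D works with CRX at photoreceptor enhancers, and RXRG is a retinoid receptor of developing cones.

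Gene positions are those of the mouse genome build GRCm38. Crx (ENSMUSG00000041578) is on the reverse strand at chr7:15865947-15879968, Nrl (ENSMUSG00000040632) at chr14:55518978-55524981, Nr2e3 (ENSMUSG00000032292) at chr9:59942771-59960659 and Otx2 (ENSMUSG00000021848) at chr14:48657677-48673819, all on that strand. Rorb (ENSMUSG00000036192) at chr19:18930605-19111196, Neurod1 (ENSMUSG00000034701) at chr2:79452521-79456751 and Prdm1 (ENSMUSG00000038151) at chr10:44437177-44528501 are on the reverse strand too. Rxrg (ENSMUSG00000015843) at chr1:167598384-167639623 and Mef2d (ENSMUSG00000001419) at chr3:88142372-88172086 are on the forward strand.

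RefSeq start sites of GRCm38.p6 gave 14 promoter windows for 9 of the 10 genes. The 250 bases before each start were searched on both strands for TAATCC, the core of CRX and OTX2 sites, TAATTA, a general homeodomain core, TGCTGA, part of the NRL site, AGGTCA, a core bound by nuclear receptors, and CACGTG, the E-box bound by BMAL1. Of 32851 promoters, 6.25% held TAATCC in these 250 bases, 4.84% TAATTA, 16.1% TGCTGA, 14.0% AGGTCA and 6.02% CACGTG. The 4 stretches below are shown because each carries letters that another factor of the group is known to bind; they are printed 5′ to 3′ on the strand of the gene, with the matches in capitals. The Crx stretch is chr7:15879969-15880085 (reverse strand), just outside the gene, and the Rorb stretch is chr19:19111217-19111326 (reverse), also outside it. The Otx2 stretch, chr14:48667735-48667844 (reverse), and the Rxrg stretch, chr1:167618125-167618234 (forward), lie within their genes before an internal start, in bases without an annotated exon.
Crx: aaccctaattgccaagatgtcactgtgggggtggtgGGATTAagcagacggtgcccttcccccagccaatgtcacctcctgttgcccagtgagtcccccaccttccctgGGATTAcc
Otx2: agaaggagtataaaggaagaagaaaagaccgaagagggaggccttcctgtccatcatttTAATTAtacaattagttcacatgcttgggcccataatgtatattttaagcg
Rorb: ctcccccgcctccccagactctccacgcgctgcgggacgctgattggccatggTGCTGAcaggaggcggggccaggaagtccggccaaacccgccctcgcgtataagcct
Rxrg: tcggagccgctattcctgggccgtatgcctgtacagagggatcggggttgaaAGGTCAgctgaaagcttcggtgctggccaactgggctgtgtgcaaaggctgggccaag

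Crx held GGATTA, which is TAATCC read on the other strand, at 94 and 21 bases before its start. Otx2 held TAATTA at 141, Rorb TGCTGA at 77 and Rxrg AGGTCA at 88 bases before the starts used here. Mef2d held TGCTGA at 229 bases and Neurod1 at 50 and 44 bases before their starts. Otx2 had 4 windows, of which others held further matches, in part within exons. The searched windows of Nrl, Nr2e3 and Prdm1 held none of the motifs. They lie within their genes before an internal start, that of Nrl wholly in annotated exons, and do not reach the outermost start. CACGTG was in no window of the 9 genes. These are matches of letters in short windows and no measurement of binding.

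None of the 10 factors passed the false discovery rate (FDR) of 0.05 between the groups. The same held for all 20459 genes under limma-trend (0% called), while 1007 genes (4.92%) had an unadjusted p under 0.05. Over all genes, edgeR called 0 and DESeq2 called 67, and none of the 10 factors was among them. The log2 fold changes of Bmal1;CKO against control, on the scale of log2(normalized count + 1), were positive for 8 factors and negative for Crx and Nrl. Rxrg, the retinoid receptor of cones, was the 1 factor of 10 with an unadjusted p under 0.05. The median of the 10 log2 fold changes was 0.14, beside 0.11 over all tested genes. That median for all genes was -0.031 with edgeR and TMM scaling, under which the median of the 10 factors was 0.15.

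**Figure D1:**
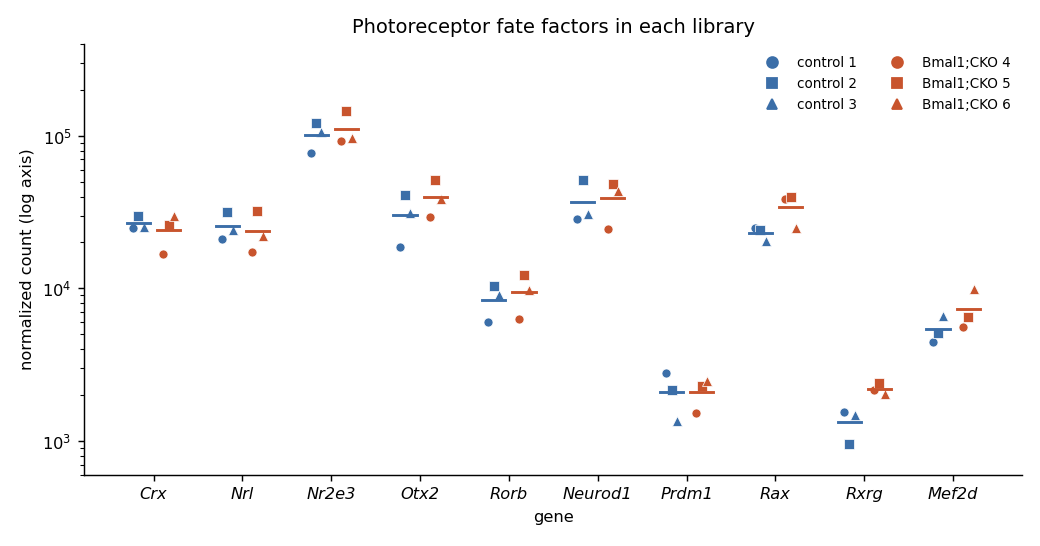
Normalized counts (log axis) of the 10 factors in each of the 3 control (blue) and 3 Bmal1;CKO (red) libraries; points are libraries and lines are group means. The Bmal1;CKO points of Rxrg (2039 to 2408) and Rax lie above the control points (956 to 1558 for Rxrg), and the points of the other 8 genes overlap.

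Rxrg had 1558, 956 and 1477 normalized counts in control libraries 1 to 3 and 2169, 2408 and 2039 in Bmal1;CKO libraries 4 to 6. Every Bmal1;CKO library was above every control library. The means were 1330 ± 327 (SD, n = 3) and 2205 ± 187 (SD, n = 3), a ratio of 1.66. The log2 fold change was 0.76 with a standard error (SE) of 0.31 and a 95% interval of 0.030 to 1.49, with limma's p of 0.0432 and an adjusted p of 0.883. The exact permutation test (two-sided) gave p = 0.1, which is the smallest value that 3 libraries against 3 allow. In edgeR the unadjusted p was 0.0566 under TMM and 0.0543 under the size factors, and DESeq2 gave 0.0342, with adjusted p over all 14 alternatives between 0.401 and 1.00. Without control library 2, which had the lowest Rxrg level, the log2 fold change was 0.54.

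Rax (ENSMUSG00000024518), the progenitor homeobox gene, lies on the reverse strand at chr18:65928277-65939787. It had 24999, 23994 and 20390 normalized counts in control and 38451, 39697 and 25051 in Bmal1;CKO libraries. The groups did not overlap, although the lowest Bmal1;CKO library stood only just above the highest control library. The means were 23128 ± 2423 (SD, n = 3) and 34400 ± 8120 (SD, n = 3), a ratio of 1.49. The log2 fold change was 0.55 (SE 0.27, 95% interval -0.085 to 1.18) with an adjusted p of 0.883 in limma-trend, and the exact permutation p was 0.1. Rax and Rxrg were the 2 of 10 factors whose groups did not overlap with Bmal1;CKO higher, against 6.62% of all tested genes, and none of the 10 was lower without overlap, against 4.54%. Antisense Raxos1 shares 1604 exon bases with Rax and had 177 to 350 normalized counts, so reads in the shared part cannot be assigned by strand where the counting setting is not given.

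Otx2, which commits precursors to the photoreceptor lineage, had 18568, 40885 and 31087 normalized counts in control and 29280, 51141 and 38728 in Bmal1;CKO libraries. Control library 1 was the lowest and Bmal1;CKO library 5 the highest, and the groups overlapped. The log2 fold change was 0.43 (SE 0.37, 95% interval -0.42 to 1.29). It was 0.12 without control library 1. Otx2os1, on the other strand, shares 154 exon bases with Otx2 and had 858 to 2657 normalized counts.

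Neurod1 ranged from 28315 to 51722 normalized counts in control and from 24581 to 48355 in Bmal1;CKO, with a log2 fold change of 0.067 (SE 0.37). Rorb, upstream of Nrl in rods, ranged from 6044 to 10303 and from 6337 to 12212, with a log2 fold change of 0.14 (SE 0.33). Prdm1, which holds back the bipolar fate, ranged from 1360 to 2771 and from 1525 to 2466, with means of 2098 ± 708 (SD, n = 3) and 2100 ± 504 (SD, n = 3). For these 3 genes the difference between group means was smaller than the SD within either group, and the sign of the log2 fold change turned when some single libraries were left out. Neurod1 shares exon bases with Cerkl on the same strand, a photoreceptor gene at 373 to 1684 normalized counts.

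Crx, the activator shared by rods and cones, had 25042, 30005 and 25346 normalized counts in control and 16688, 25860 and 29916 in Bmal1;CKO libraries. Bmal1;CKO library 4 was the lowest of the 6, and the other 2 Bmal1;CKO libraries lay within the control range. The means were 26798 ± 2782 (SD, n = 3) and 24155 ± 6777 (SD, n = 3). The log2 fold change was -0.19 (SE 0.29, 95% interval -0.85 to 0.48) and 0.059 without Bmal1;CKO library 4.

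Nrl, the rod determinant, had 21051, 31761 and 24089 normalized counts in control and 17329, 32177 and 21953 in Bmal1;CKO libraries. The lowest and the highest of the 6 libraries were both Bmal1;CKO. The log2 fold change was -0.13 (SE 0.31, 95% interval -0.85 to 0.59), which turned to 0.074 when Bmal1;CKO library 4 was left out and to 0.033 when control library 2 was. Nr2e3, the repressor of cone genes that NRL activates, had 77254, 121257 and 106135 normalized counts in control and 92223, 145465 and 97169 in Bmal1;CKO libraries. Its log2 fold change was 0.13 (SE 0.34, 95% interval -0.66 to 0.92). For these 3 genes of the rod cascade, the intervals include 0 and run from -0.66 or lower to 0.48 or higher on the log2 scale, which is the precision of 3 libraries a group.

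Mef2d, the partner of CRX at enhancers, had 4454, 5070 and 6618 normalized counts in control and 5579, 6521 and 9959 in Bmal1;CKO libraries. The groups overlapped, and Bmal1;CKO library 6 stood above the other 5. The log2 fold change was 0.43 (SE 0.30, 95% interval -0.28 to 1.13) and 0.18 without that library.

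**Figure D2:**
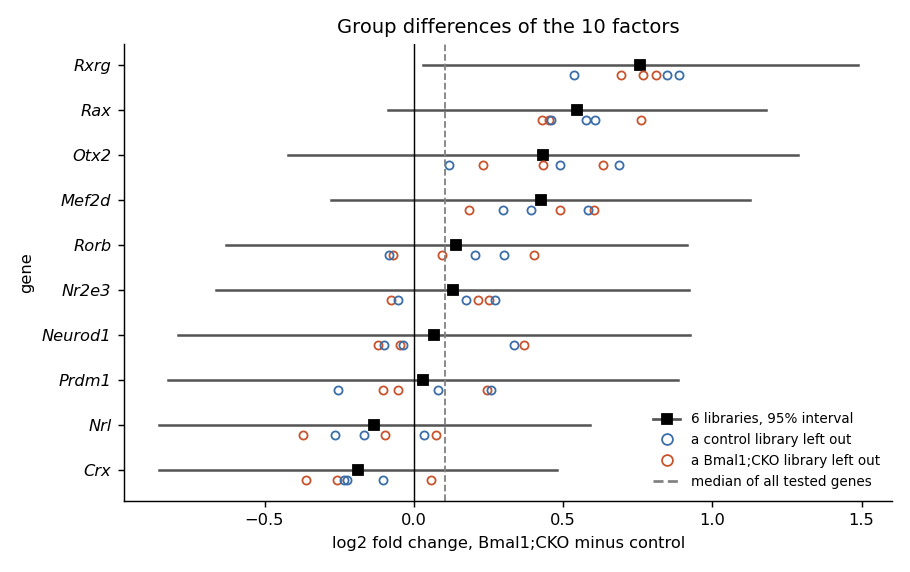
Log2 fold change (Bmal1;CKO minus control) of each factor over 6 libraries (black squares) with its 95% interval (grey lines); open circles give the value with 1 library left out, and the dashed line is the median of all tested genes (0.11). The interval of Rxrg alone (0.030 to 1.49) lies above 0, and 6 of the 10 genes have circles on both sides of 0.

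Per kilobase of exon, the factors spanned a wide range of levels. Nr2e3 was the highest at 31637 normalized counts per kilobase (mean of 6 libraries), rank 200 of 20459 tested genes, and its lowest library was above the highest library of Neurod1, the next gene at 13889. Neurod1 was above Otx2 in 6 of 6 libraries, although their ranges overlapped. Otx2 (8280) and Crx (8062) followed and did not differ beyond their spread, with Otx2 above Crx in 3 of 6 libraries. Crx was above Rax (4920) in 5 of 6 libraries. Rax and Nrl (4346) also overlapped, with Rax the higher in 4 of 6 libraries. A gap without overlap separated Nrl from Mef2d (1064), by a ratio of 4.09. Mef2d, Rorb (807) and Rxrg (770) overlapped in this order, and Prdm1 was the lowest at 376 per kilobase, rank 7727, below Rxrg in 6 of 6 libraries. With the longest transcript in place of the summed exon length, the order of Crx and Rax turned. On the same scale, the endothelial transcription factor genes Sox17 and Erg had means over the 6 libraries of 1430 and 304 normalized counts per kilobase, the first below the means of 6 of the 10 photoreceptor factors and the second below all 10 means. Erg varied widely, from 320 to 3088 normalized counts, and its highest library (891 per kilobase) was above the means of Rorb, Rxrg and Prdm1. Cldn5, another endothelial marker, had a mean of 81069 per kilobase, above all 10 factor means, so Sox17 and Erg do not stand for endothelial RNA as a whole.

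The wider network of photoreceptor regulators and cofactors, a list of 34 genes without the 10 factors, had 32 tested genes. Of these, 24 had positive and 8 negative log2 fold changes, with a median of 0.35, and 0 passed FDR 0.05 in limma-trend. An unadjusted p under 0.05 was reached by 3 genes, all with higher levels in Bmal1;CKO, against 3.17% of all tested genes in that direction. Among them were Notch1 and Foxn4, which act in progenitors and early precursors. Foxn4, a factor of amacrine and horizontal precursors, had 0, 2 and 8 reads in control and 188, 132 and 179 reads in Bmal1;CKO libraries. Its log2 fold change of 5.95 (SE 1.16, limma adjusted p = 0.651) depends on the pseudocount and was 3.83 with 10 in place of 1. DESeq2 gave Foxn4 an adjusted p of 0.000524, edgeR with TMM scaling 1.00.

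Notch1, the receptor that keeps progenitors undifferentiated, had 799, 1219 and 2084 normalized counts in control and 2398, 2316 and 3219 in Bmal1;CKO libraries, with a log2 fold change of 1.05 (SE 0.40). Its adjusted p was 0.883 in limma-trend. The groups of 5 of the 32 genes did not overlap, among them Notch1, Foxn4, Lhx2, an eye field homeobox gene (0.64, SE 0.29), and Cnot3, a subunit of the mRNA deadenylase (0.51, SE 0.32). Bmal1;CKO was the higher in all 5, against 6.62% of all tested genes, and in none was it lower without overlap, against 4.54%. Notch1 is also expressed by endothelial cells.

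Beside these regulators, the genes that make up the rod outer segment and its signaling showed the other sign. Of the 26 rod genes tested, 24 had negative log2 fold changes and 2 positive ones, with a median of -0.37, and 0 passed FDR 0.05 in limma-trend. Without Bmal1;CKO library 4, the lowest in summed rod counts, the median was -0.091. Kcnj14, Cnga1, Gngt1, Rcvrn and Aipl1 had an unadjusted p under 0.05, all 5 with lower levels in Bmal1;CKO, against 1.75% of all tested genes in that direction. Cnga1, a subunit of the rod cation channel, had 12999, 8738 and 6148 normalized counts in control and 1831, 5258 and 4196 in Bmal1;CKO libraries, with a log2 fold change of -1.37 (SE 0.46). Kcnj14, a potassium channel gene, had 659, 475 and 344 against 107, 98.5 and 87.3, with a log2 fold change of -2.28 (SE 0.59). Its adjusted p was 0.883 in limma-trend, 1.00 with edgeR and TMM scaling and 0.00646 in DESeq2. The groups of Kcnj14, Cnga1 and Gnb1 did not overlap, with Bmal1;CKO lower in these 3 of 26 genes, against 4.54% of all tested genes. Gnb1 encodes a G protein β subunit that rod transducin uses, and bulk reads do not tell which cells its RNA came from.

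Gngt1, the γ subunit of rod transducin, had 81661, 69689 and 10642 normalized counts in control and 7728, 16621 and 10789 in Bmal1;CKO libraries. Control library 3 lay within the Bmal1;CKO range, and the log2 fold change of -1.82 (SE 0.75) ran from -2.76 to -1.29 with 1 library left out. Rcvrn, the calcium sensor recoverin, had a log2 fold change of -0.997 (SE 0.41) and Aipl1, a chaperone of the phosphodiesterase, one of -0.87 (SE 0.34). Pdc, the gene of phosducin, ranged from 161070 to 290635 normalized counts in control and from 108054 to 228828 in Bmal1;CKO. The rod and cone lists were not exclusive, as Grk1 was in both. The 14 cone genes had 12 positive and 2 negative values with a median of 0.64, of which 0 had an unadjusted p under 0.05. The mean normalized count was higher in Bmal1;CKO for 9 of the 14 and lower for 5. The median was 0.23 with edgeR and 0.37 when a gene had to reach 10 reads in all 6 libraries. Opn1sw, the short-wavelength cone pigment, had 2531, 20015 and 17504 normalized counts in control and 18170, 14661 and 17958 in Bmal1;CKO libraries, so control library 1 stood apart. Without that library the cone median was -0.12, and Gnb3, the β subunit of cone transducin, had a log2 fold change of 0.14 in place of 0.37.

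**Figure D3:**
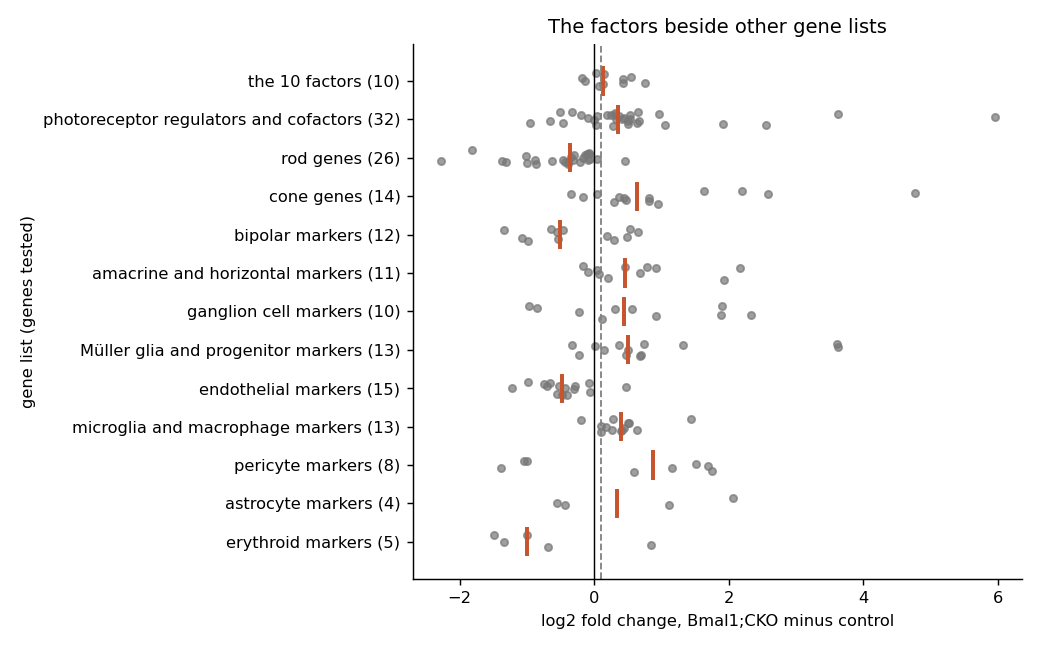
Log2 fold changes (Bmal1;CKO minus control) of the tested genes of each list (grey points, 1 per gene) with the list median (red bar); the dashed line is the median of all tested genes (0.11). The median of the 10 factors (0.14) lies between that of the regulators and cofactors (0.35) and that of the rod genes (-0.37).

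Marker lists of other retinal cells give the setting of these values. Median log2 fold changes were -0.50 for 12 bipolar, 0.46 for 11 amacrine and horizontal, 0.44 for 10 ganglion cell and 0.50 for 13 Müller glia and progenitor markers. They were -0.47 for 15 endothelial, 0.40 for 13 microglia and macrophage, 0.34 for 4 astrocyte and -1.0 for 5 erythroid markers. For 8 pericyte markers the median was 0.88, while the mean normalized count was lower in Bmal1;CKO for all 8, so median and means differed in sign. Only 3 of the 8 had at least 10 reads in every library, and the median was -1.47 with edgeR and -1.48 without control library 1. The mean was also lower for 3 of the 4 astrocyte markers. The mean was higher for 6 and lower for 5 of the 11 amacrine and horizontal markers. For the 10 ganglion cell markers it was higher for 5 and lower for 5. Control library 1 had 0 reads of some markers of both lists, so their positive medians do not show higher levels in Bmal1;CKO. Of the Müller glia and progenitor list, whose median had the sign of Rax and Notch1, 11 of 13 genes were positive, and the groups of 3 did not overlap, with Bmal1;CKO higher in each, against 6.62% of all tested genes. Among them were Sox9, a glial and progenitor factor (log2 fold change 1.33, SE 0.47), and Ccnd1, the cyclin of cycling progenitors (0.74, SE 0.28). Control library 1 had 0 reads of Sox2 and Fgf15 of this list, but the highest Glul and Apoe levels. Dkk3 had 2116, 12596 and 12261 normalized counts in control and 11422, 8508 and 9097 in Bmal1;CKO libraries, so its positive sign rests on control library 1. The number of positive genes in this list thus depends in part on that library. The summed level of this list, mostly Apoe, ranged from 4080740 to 16697900 normalized counts in control and from 7418800 to 13634000 in Bmal1;CKO. The sum thus gives the level of Apoe, which bulk reads do not assign to a cell type, rather than that of the list. The part of cell makeup in the values of Rax and Rxrg was not tested.

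To set each factor against the photoreceptor content of a library, the difference between its log2 level and the mean log2 level of the 26 rod genes was taken as a log2 ratio. The ratio adds the same 0.55 to the log2 fold change of every gene, because the rod genes themselves were lower on average. The ratios of the 10 factors differed by 0.36 for Crx to 1.31 for Rxrg, with a median of 0.68, beside a median of 0.65 over all tested genes, of which 84.1% were positive. For 6 factors, Rxrg, Rax, Otx2, Rorb, Nr2e3 and Neurod1, every Bmal1;CKO library was above every control library, against 15.2% of all tested genes. In their own levels, Otx2, Rorb, Nr2e3 and Neurod1 overlapped between the groups. The rod genes were mostly lower in Bmal1;CKO and were listed with earlier results known, so this separation is no independent sign of a difference. Whether genes that vary with the rod genes separate more easily in this ratio than other genes was not tested. The exact permutation p was 0.1 for each of these 6, and 0.167 after adjustment over the 10 factors, and since 0.1 is the smallest p possible, no factor could pass 0.05.

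Rorb gave the tightest such ratio in Bmal1;CKO libraries. Its log2 ratio to the rod genes was -1.34, -0.50 and -0.38 in control and -0.026, -0.063 and -0.063 in Bmal1;CKO libraries, a difference of 0.69. Otx2 had ratios of 0.28, 1.48 and 1.41 against 2.18, 2.00 and 1.93, a difference of 0.98. In both genes control library 1 was the lowest of the 6. Rxrg had ratios of -3.30, -3.93 and -2.99 against -1.57, -2.41 and -2.32, and Rax of 0.71, 0.72 and 0.80 against 2.58, 1.64 and 1.30.

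The ratio depended on how the rod list was summarized. Against the summed rod counts, the differences ran from 0.15 for Crx to 1.09 for Rxrg, and 3 rather than 6 factors were without overlap, against 9.49% of all tested genes. Against the 14 cone genes every gene was shifted by -1.06. The ratios of the 10 factors then differed by -1.25 to -0.30 with a median of -0.93, beside -0.96 over all tested genes, of which 18.1% were positive, and 0 were higher without overlap, against 2.09% of all tested genes. These cone ratios had adjusted exact permutation p between 0.75 and 1, 4 of the 10 turned positive against the summed cone counts, and without control library 1 they ran from -0.46 to 0.69.

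**Figure D4:**
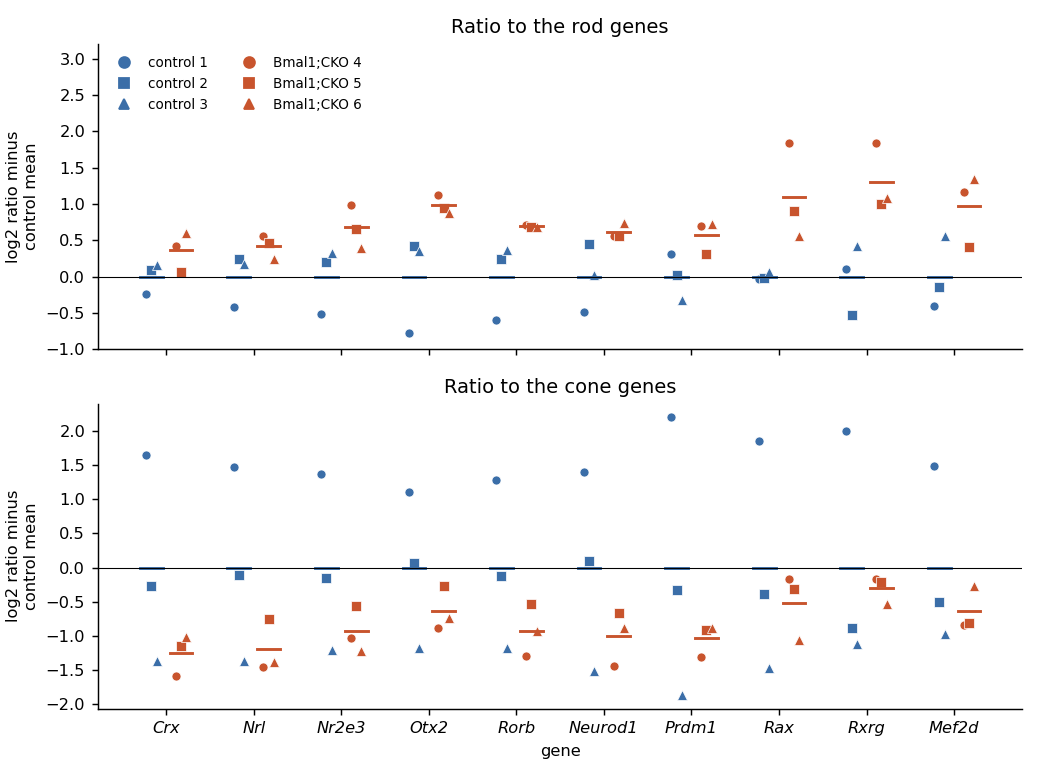
Log2 ratio of each factor to the rod genes (upper) and to the cone genes (lower) in each library, drawn as the difference from the control mean of that gene; points are libraries, blue for control and red for Bmal1;CKO, and lines are group means. Against the rod genes the red lines lie at 0.36 to 1.31, beside a median of 0.65 over all tested genes, and against the cone genes control library 1 stands above the other 5 for every factor.

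Across the 6 libraries, the factors did not vary as 1 block. Nrl, Nr2e3, Otx2, Rorb and Neurod1 varied alike, with Pearson r of 0.68 to 0.92 in their 10 pairs on log2 levels. The closest pair was Otx2 and Rorb (r = 0.92), and the ratio of Nrl to Nr2e3 counts stayed between 0.188 and 0.273 in all 6 libraries. Rax and Rxrg varied together (r = 0.70) and apart from that set, with r of -0.58 to 0.45 in their 16 pairs with other factors. Crx and Rax gave the lowest r of the 45 pairs (-0.58). These coefficients rest on 6 libraries that share size factors and cell makeup, and the 5 genes were grouped after their values were seen.

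**Figure D5:**
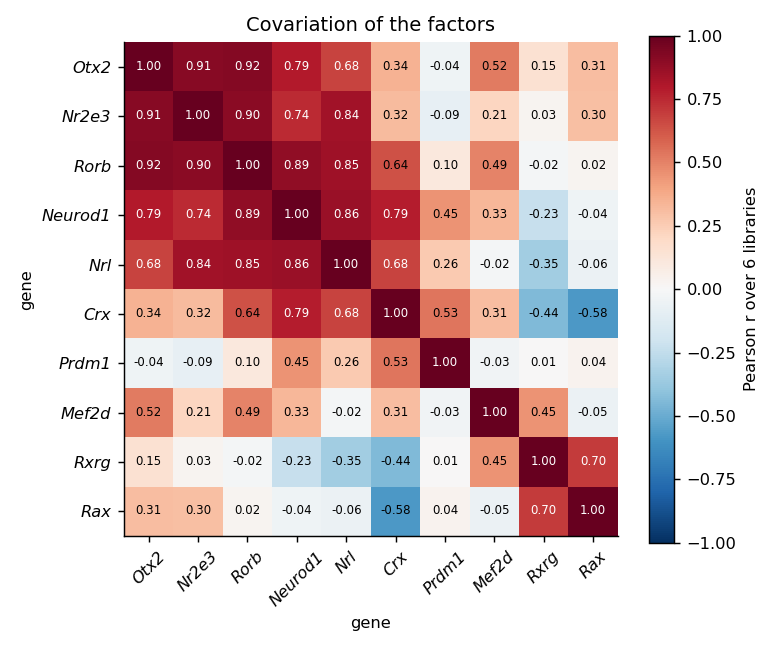
Pearson r over 6 libraries for each pair of factors, on log2(normalized count + 1); color and printed value both give r. The square of Otx2, Nr2e3, Rorb, Neurod1 and Nrl holds r of 0.68 to 0.92, and Rax and Crx have the lowest r (-0.58).

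The genes most like Crx over the 6 libraries, among 14672 protein-coding genes outside the 10, were Gmeb2 (r = 0.99), Lrch3 (r = 0.98) and Nrg4 (r = 0.98). Those most like Nrl were Pcm1 (r = 0.99), Grin3b (r = 0.99) and Bicd1 (r = 0.99). Grin3b had 8.61, 186.5 and 15.7 normalized counts in control and 0, 212.5 and 4.12 in Bmal1;CKO libraries. Its r thus rests on control library 2 and Bmal1;CKO library 5, with values near the floor elsewhere. All these genes were picked for the highest r over 6 libraries, so their r is no independent sign of a link. Rod genes had a median r of 0.56 with Crx and 0.53 with Nrl, bipolar markers of 0.61 and 0.46, and cone genes of 0.092 and 0.34. Endothelial markers had a median r of 0.12 with Crx and -0.48 with Nrl, and microglia and macrophage markers of -0.56 and -0.55.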

How the data were processed

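Cells sorted as VECs from P7.5 retinas gave 3 control and 3 Bmal1;CKO libraries, amplified with the Smart v4 kit and made with Nextera XT. The authors used FastQC, Trimmomatic, Bowtie (mm10, Ensembl GRCm38 v87), featureCounts and DESeq2, with versions and strand setting not given in the sources used here. The authors deposited a signal, the count per gene divided by the DESeq2 size factor. Also deposited were the mean of the libraries and the authors' own comparison (log2 fold change, standard error, Wald score, p-value and adjusted p-value), none of which was used. Columns name the genotype and carry numbers that do not match the sample descriptions, so each was used as a replicate of its group.

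Dividing each column by its step gave whole reads (tolerance 0.1) for 100% of values. A filter kept genes that reached 10 reads in 3 libraries or more. Those were tested with limma-trend (limma 3.58.1, R 4.3.3) on log2(normalized count + 1) for genotype alone, with Benjamini-Hochberg adjustment over 20459 genes. Exact permutation tests were two-sided, 3 libraries against 3. Correlations are descriptions. Lengths came from GENCODE M21 and promoters from RefSeq. The statistics were tested on simulated data. Figures were drawn with matplotlib 3.10.9.

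The alternatives were edgeR 4.0.16 (TMM or size factors) and DESeq2 1.42.0 on the recovered reads, log2 CPM with TMM (prior count 2), pseudocounts of 0.5 and 10, filters of 1 read in total or of 10 reads in all libraries, leaving out single libraries, the summed list in the ratios and the longest transcript. The factors, the lists and the rule for named genes were chosen with earlier results of these data known. That rule names the 10 factors, the 3 genes most like Crx and the 3 most like Nrl, and of each list the gene with the highest mean normalized count (not corrected for length) and those with an unadjusted p under 0.05. Cldn5, Sox17, Erg, Opn1sw, Lhx2, Cnot3, Gnb1 and genes that share exons with a factor were named after their values were seen. Some genes that the rule names are not reported here.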

Additional observations from a re-analysis of the deposited data

How the results depend on the processing

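No paired analysis was possible because the columns of the table carry none of the replicate numbers of the sample descriptions. All 80 log2 fold changes of the 10 factors under the 8 settings that kept all libraries had the sign reported above, and none passed FDR 0.05 there or with 1 library left out. With 1 library left out, 14 of 60 turned sign, in 6 genes. The ranges were -0.36 to 0.059 for Crx, -0.37 to 0.074 for Nrl, -0.076 to 0.27 for Nr2e3, -0.082 to 0.40 for Rorb, -0.12 to 0.37 for Neurod1 and -0.25 to 0.26 for Prdm1. Opn1sw ranged from -0.15 to 1.34, negative only without control library 1. The median of the 10 factors ranged from -0.062 to 0.39, the lowest without Bmal1;CKO library 5 and the highest without library 4.

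The number of factors with an unadjusted p under 0.05 was 0 in place of 1 with edgeR under either scaling and with at least 10 reads in every library, and 0 to 1 with a library left out (0 without control library 2 or Bmal1;CKO libraries 4 or 5). The 1 factor was Rxrg without control library 1 (p 0.0238) or 3 (p 0.0430) in limma-trend, and Rax (p 0.0360) rather than Rxrg (p 0.0832) without Bmal1;CKO library 6. Over all genes, FDR 0.05 was passed by 67 genes in DESeq2, by 1 gene under either other filter, and by 0 to 6 with a library left out (6 without control library 1). Genes with an unadjusted p under 0.05 numbered 318 without Bmal1;CKO library 5 to 2332 without control library 3.

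Factors above control in every Bmal1;CKO library in the ratio to rod genes numbered 3 with the summed list, against 9.49% of all tested genes. With a library left out they numbered 6 to 9, and in the ratio to cone genes 0 to 1. Fewer libraries separate more easily, and no share over all tested genes is given for the left-out settings. These counts therefore show no stronger difference. Against the summed cone counts the ratio differences were 0.12 for Otx2, 0.23 for Rax, 0.44 for Rxrg and 0.11 for Mef2d. With a library left out the cone differences ranged from -1.96 to 0.065 for Prdm1, -1.25 to 0.41 for Rax, -0.86 to 0.69 for Rxrg and -1.12 to 0.10 for Mef2d. The cause of these changes was not tested. With 3 libraries a group, the 95% intervals of the factors span more than 1 on the log2 scale.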
